A study of Mus musculus with 21 samples.

Results

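The miR-140 arms are the mature strands cut from the hairpin of *Mir140*, a miRNA gene best known from cartilage, read here from small-RNA-seq of mouse pituitary. They were chosen by name, as all entries whose name begins with miR-140-, and miR-140 was selected on its counts in these libraries, so its levels are described without a test. The tables of the virgin cohort hold 3 such entries (miR-140-5p, miR-140-3p.1, and miR-140-3p.2) among 1909 miRNAs. Those of the breeding trial cohort hold 2 (miR-140-5p and miR-140-3p) among 1841. Over both cohorts, 4 names of 1934 belong to miR-140, and all of them passed the expression filter in every comparison.

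A miRNA hairpin yields a 5p and a 3p strand, either of which can be loaded into an Argonaute protein and guide it to mRNAs through the seed near its 5′ end, so a shifted 5′ end changes the seed and with it the set of targets. miR-140 is abundant in chondrocytes and is hosted by *Wwp2*, which encodes a ubiquitin ligase. ZEB1 is a transcriptional repressor whose mRNA is a target of the miR-200a/b families, and ZEB1 in turn represses the genes of these miRNAs.

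The study asked how pituitary miRNAs differ when *Zeb1* escapes miR-200a/b, in female C57BL/6J mice. It compared wild-type (WT) mice with heterozygous (*Zeb1 200H*) and homozygous (*Zeb1 200M*) carriers of a knock-in allele with altered miR-200a/b sites. Virgin females were 8–12 weeks old (3 WT, 4 *Zeb1 200H*, and 4 *Zeb1 200M* libraries), and females of the breeding trial were 28–36 weeks old (4 WT, 3 *Zeb1 200H*, and 3 *Zeb1 200M* libraries). Pituitaries were taken in proestrus, the stage before ovulation. The knock-in mice descend from a pair of targeted embryonic stem cell clones, and the labels do not say which clone line a library came from. The allele is present in all cells, and no cell type was isolated. The tables used here hold miRNAs alone, so *Zeb1* mRNA, which the study measured by other assays, cannot be read from them.

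*Mir140* (ENSMUSG00000065439) lies on the plus strand of chromosome 8 at chr8:107551244-107551313 in the mouse genome build GRCm38.p6, inside the protein-coding gene *Wwp2* (ENSMUSG00000031930, chr8:107436365-107558595, plus strand). The annotation places the hairpin in intron 16 of transcript Wwp2-201, intron 15 of Wwp2-204, and intron 7 of Wwp2-205, and within an exon of the retained-intron transcript Wwp2-206 (chr8:107550895-107553547). The RefSeq table of miRNA sequences matched 1 mature arm of miR-140, the 3p arm, at chr8:107551288-107551308. The hairpin is shown with this arm in capitals, which spans bases 45 to 65 of 70. The mature strand is shown with its seed, bases 2 to 8, in capitals.
Mir140 hairpin: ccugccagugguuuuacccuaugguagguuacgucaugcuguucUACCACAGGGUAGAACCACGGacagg
miR-140-3p: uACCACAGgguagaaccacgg

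Of the 1738 mature miRNAs in the RefSeq table, 1 other, miR-497b (chr11:70234763-70234786, minus strand), carries the same seed, and it is shown so that the shared bases can be compared. The tables do not give the 5′ starts of miR-140-3p.1, miR-140-3p.2, or miR-140-3p, so which of these entries has the seed shown is unknown.
miR-497b: cACCACAGugugguuuggacgugg
miR-497b had 1 count in 1 library among 101038903 counts of the virgin cohort. It had 0 among 1180255 counts of the breeding trial cohort, which allows a level of up to 2.54 CPM (counts scaled to a common library total) over the cohort, taking 3 counts as the limit for a count of 0.

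Depth differed between the cohorts. Virgin WT replicates 1, 2, and 4 held 3816917, 10806313, and 9029142 counts. The 4 *Zeb1 200H* libraries held 10266419, 9698685, 10082073, and 8551806, and the 4 *Zeb1 200M* libraries held 10515664, 9508346, 8502878, and 10260660. Totals in the breeding trial cohort were 154546, 113937, 84093, and 191650 for WT, 110003, 60037, and 131324 for *Zeb1 200H* (replicates 1, 3, and 4), and 87665, 124190, and 122810 for *Zeb1 200M*. Levels are given as CPM of library totals multiplied by TMM factors, which equalize the bulk of miRNAs between libraries, and intervals around single libraries are 95% intervals that cover counting error only.

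Virgin WT replicate 1 stood apart from the other WT libraries of its cohort. Across 704 miRNAs, which are not independent replicates, Pearson's r of log2 CPM was 0.962 and 0.963 between WT replicate 1 and replicates 2 and 4, compared with 0.993 between replicates 2 and 4 and 0.989 to 0.994 within the mutant groups. It differed more than 2-fold from replicates 2 and 4 at 275 and 283 miRNAs, whereas these differed from each other at 47. Its TMM factor was 0.616, below the 0.943 to 1.12 of the other virgin libraries, so scaling raised its values. Virgin fold changes of miR-140 against WT, and the counts and medians of the lists below, are therefore given with and without it.

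In virgin pituitary, miR-140-5p was at a lower level in each WT library than in any mutant library. Its counts in WT replicates 1, 2, and 4 were 879, 2504, and 2231, or 374, 246, and 252 CPM. *Zeb1 200H* replicates 1 to 4 had 4911, 4711, 4988, and 4160 counts, or 460.1, 447, 478, and 457 CPM. *Zeb1 200M* replicates 1 to 4 had 5336, 4840, 4752, and 5370 counts, or 477, 455, 503, and 490.4 CPM. Mutant libraries lay close together and the genotypes of the knock-in overlapped each other on this scale, whereas WT replicate 1 lay between the other WT libraries and the mutants. In these bulk samples, fewer cells of a type and less RNA per cell cannot be told apart. Means were 291 ± 72.4 CPM (SD, n = 3) in WT, 461 ± 12.5 (SD, n = 4) in *Zeb1 200H*, and 481 ± 20.6 (SD, n = 4) in *Zeb1 200M*. Without replicate 1, the WT mean was 249 ± 4.49 CPM (SD, n = 2).

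miR-140-3p.1 and miR-140-3p.2 are reads of the same arm, and the suffixes of the TargetScan names mark different 5′ starts. miR-140-3p.1 was the most abundant miR-140 entry in every virgin library. It had 1100, 3132, and 2902 counts in WT replicates 1, 2, and 4, or 468, 307, and 328 CPM. In *Zeb1 200H* replicates 1 to 4, counts were 6579, 6344, 6397, and 5536, or 616, 603, 612, and 609 CPM. In *Zeb1 200M* replicates 1 to 4, counts were 6383, 6317, 5454, and 6594, or 570.1, 594, 577, and 602 CPM. All WT libraries lay below all mutant libraries, and the *Zeb1 200M* libraries lay just below those of *Zeb1 200H*, a separation that was absent when levels were scaled to library totals alone. Means were 368 ± 87.5 CPM (SD, n = 3) in WT, 610.1 ± 5.91 (SD, n = 4) in *Zeb1 200H*, and 586 ± 14.7 (SD, n = 4) in *Zeb1 200M*, and the WT mean without replicate 1 was 318 ± 14.5 (SD, n = 2).

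miR-140-3p.2 was the one miR-140 entry at which a WT library reached the mutants. Counts were 951, 2059, and 1904 in WT replicates 1, 2, and 4, or 405, 202, and 215 CPM. *Zeb1 200H* replicates 1 to 4 had 3673, 3506, 3926, and 3311 counts, or 344, 333, 376, and 364 CPM, and *Zeb1 200M* replicates 1 to 4 had 4065, 3715, 3324, and 4061 counts, or 363, 349, 352, and 371 CPM. WT replicate 1 exceeded every mutant library, WT replicates 2 and 4 lay below every one, and the mutant genotypes overlapped. Means were 274 ± 113 CPM (SD, n = 3) in WT, 354 ± 19.3 (SD, n = 4) in *Zeb1 200H*, and 359 ± 10.1 (SD, n = 4) in *Zeb1 200M*. Without replicate 1, WT averaged 209 ± 9.24 CPM (SD, n = 2).

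Scaling decided where WT replicate 1 fell. On library totals alone, WT replicates 1, 2, and 4 had 230.3, 232, and 247 CPM of miR-140-5p, all below the mutants. On this scale *Zeb1 200H* had 478 to 495 CPM and *Zeb1 200M* 507 to 559, so the mutant genotypes no longer overlapped. For miR-140-3p.2 the same scaling gave 249, 191, and 211 CPM in WT and 358 to 396 CPM in the mutants, and WT no longer overlapped them. By rank, miR-140-5p was 175th, 209th, and 205th by count in WT replicates 1, 2, and 4 and between 147th and 163rd in the mutants. Taken as a share of all counts, miR-140 made up 0.0768%, 0.0712%, and 0.0779% of these WT libraries and 0.148% to 0.159% of the mutants.

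**Figure D1:**
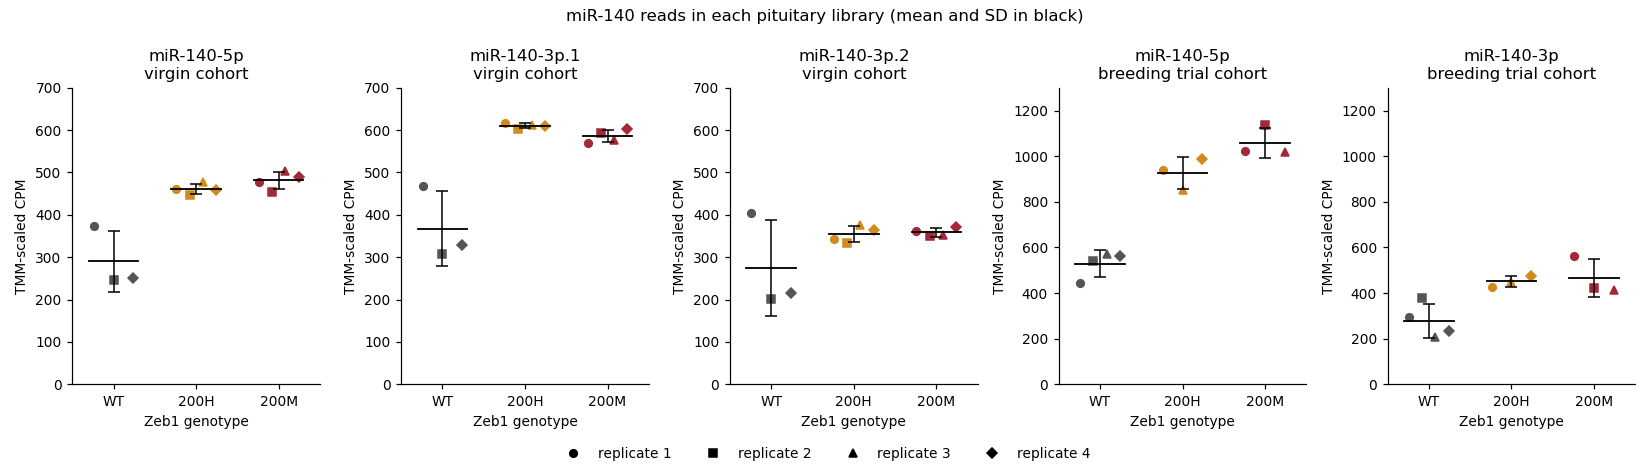
Level of each miR-140 entry (y axis, TMM-scaled CPM) in each pituitary library by *Zeb1* genotype (x axis) in the virgin and breeding trial cohorts. Points are libraries, with the shape giving the replicate number, and black lines and bars are the mean and SD. The virgin WT libraries of miR-140-5p lie between 246 and 374, below the mutants at 447 to 503, with WT replicate 1 the highest of WT in all virgin panels.

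Comparison of *Zeb1 200M* with WT in the virgin cohort asked how the homozygous allele altered miRNAs in young pituitary. Levels of miR-140 differed by a log2 fold change of 0.73 ± 0.18 (SE) for miR-140-5p, 0.67 ± 0.18 for miR-140-3p.1, and 0.39 ± 0.25 for miR-140-3p.2. The groups did not overlap at 2 of the 3 entries. Over the whole table, 94 of 678 miRNAs were higher and 82 lower without overlap, and edgeR's quasi-likelihood test with Benjamini-Hochberg adjustment called 6.49% (44 miRNAs, with 150 at an unadjusted p below 0.05 and 93 by DESeq2). When WT replicate 1 was left out, log2 fold changes were 0.97, 0.90, and 0.80 for miR-140-5p, miR-140-3p.1, and miR-140-3p.2, and 168 miRNAs of the table were called. Leaving out WT replicate 2 or 4 instead gave 0.21 and 0.26 for miR-140-3p.2, and leaving out any *Zeb1 200M* library gave 25 to 29 called miRNAs.

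The heterozygous allele was compared with the same WT libraries, so the comparisons share their controls. Between *Zeb1 200H* and WT, log2 fold changes were 0.67 ± 0.18 (SE) for miR-140-5p, 0.73 ± 0.18 for miR-140-3p.1, and 0.37 ± 0.25 for miR-140-3p.2. Again 2 of the 3 entries did not overlap, while 91 of 672 miRNAs were higher and 80 lower without overlap and edgeR called 5.06% (34, with 131 at an unadjusted p below 0.05 and 73 by DESeq2). Leaving out WT replicate 1 gave 0.89, 0.95, and 0.77, with 151 miRNAs of the table called. The value of miR-140-3p.2 was 0.20 without WT replicate 2 and 0.23 without WT replicate 4, and leaving out any *Zeb1 200H* library gave 21 or 22 called miRNAs.

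Levels of miR-140 differed little between the virgin mutants. Between *Zeb1 200M* and *Zeb1 200H*, log2 fold changes were 0.05 ± 0.06 (SE) for miR-140-5p, −0.07 ± 0.06 for miR-140-3p.1, and 0.01 ± 0.06 for miR-140-3p.2. With a library left out, miR-140-5p ranged from 0.0421 to 0.0906 and miR-140-3p.2 from −0.0167 to 0.0468. The mutants did not overlap at 1 of the 3, while 13 of 675 miRNAs were higher and 25 lower without overlap and edgeR called 2.22% (15, with 63 at an unadjusted p below 0.05). A common fit of 3 genotypes called 5. In order of mean level, miR-140-5p and miR-140-3p.2 ran from WT through *Zeb1 200H* to *Zeb1 200M*, and miR-140-3p.1 from WT through *Zeb1 200M* to *Zeb1 200H*. The mutant neighbours in these orders overlapped for miR-140-5p and miR-140-3p.2, and for miR-140-3p.2 WT overlapped both of them through replicate 1.

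Among the breeding trial libraries, WT again had the lowest levels of miR-140-5p. Counts were 63, 59, 44, and 96 in WT replicates 1 to 4, or 442, 542, 571, and 561 CPM. *Zeb1 200H* replicates 1, 3, and 4 had 106, 53, and 137 counts, or 941, 852, and 990 CPM, and *Zeb1 200M* replicates 1 to 3 had 96, 150, and 136 counts, or 1022, 1135, and 1018 CPM. The groups followed the order WT, *Zeb1 200H*, *Zeb1 200M* with no overlap between neighbours. Means were 529 ± 59.0 CPM (SD, n = 4) in WT, 927 ± 70.0 (SD, n = 3) in *Zeb1 200H*, and 1058 ± 66.1 (SD, n = 3) in *Zeb1 200M*.

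miR-140-3p, which has no suffix in the miRBase names of this cohort, was less abundant than miR-140-5p in each library. WT replicates 1 to 4 had 42, 41, 16, and 40 counts, or 295, 377, 207, and 234 CPM. The 16 counts of WT replicate 3 have an exact Poisson interval of 9.15 to 26.0 counts, so single libraries are imprecise at this depth. *Zeb1 200H* replicates 1, 3, and 4 had 48, 28, and 66 counts, or 426, 450 and 477 CPM, and *Zeb1 200M* replicates 1 to 3 had 53, 56, and 55 counts, or 564, 424, and 412 CPM. All WT libraries lay below all mutant libraries, and the mutant genotypes overlapped. Means were 278 ± 75.3 CPM (SD, n = 4) in WT, 451 ± 25.3 (SD, n = 3) in *Zeb1 200H*, and 467 ± 85.0 (SD, n = 3) in *Zeb1 200M*. All miR-140 entries made up 0.0679%, 0.0878%, 0.0713%, and 0.0710% of counts in WT replicates 1 to 4 and 0.135% to 0.170% in the mutants.

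Comparisons in this cohort address the same allele in older females that had been mated. The study reported that most homozygous females of the trial had no litters, unlike WT and heterozygous females. Litter history in the trial thus differed with genotype, and the labels do not give it for single libraries. Its part in the breeding trial differences of the homozygous group from WT and from heterozygous females was not tested. Between *Zeb1 200M* and WT, log2 fold changes were 1.00 ± 0.15 (SE) for miR-140-5p and 0.71 ± 0.21 for miR-140-3p. The groups did not overlap at either entry (2 of 2), while 57 of 276 miRNAs were higher and 54 lower without overlap and edgeR called 35.9%. Between *Zeb1 200H* and WT, which uses the same WT libraries, they were 0.83 ± 0.17 and 0.69 ± 0.22, and 2 of 2 did not overlap, while 33 of 267 miRNAs were higher and 29 lower without overlap and edgeR called 12.0%. These were 32 miRNAs (13 higher and 19 lower), compared with 69 (54 higher and 15 lower) on library totals alone. With each library left out in turn, the value of miR-140-3p was 0.57 to 0.88 for *Zeb1 200M* and 0.59 to 0.86 for *Zeb1 200H*.

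For the older mutants, the log2 fold changes of *Zeb1 200M* over *Zeb1 200H* were 0.19 ± 0.17 (SE) for miR-140-5p and 0.03 ± 0.22 for miR-140-3p, which was −0.11 without *Zeb1 200M* replicate 1 and 0.11 without *Zeb1 200M* replicate 2. At 1 of the 2 the mutants did not overlap, while 25 of 274 miRNAs were higher and 23 lower without overlap and edgeR called 1.09% (3, with 40 at an unadjusted p below 0.05, and 5 called without *Zeb1 200M* replicate 2). The larger miR-140-5p values of *Zeb1 200M* thus did not overlap those of *Zeb1 200H* but gave a log2 fold change close to its standard error. Whether the cohorts differ was not tested, and cohort, age, mating, RNA input, sequencing instrument, and miRNA dictionary cannot be told apart.

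The balance of strands can be compared within a library, free of scaling, although ligation efficiency differs between sequences, so these are shares of reads and not of molecules. In virgin pituitary, miR-140-5p took 30.0%, 32.5%, and 31.7% of miR-140 reads in WT replicates 1, 2, and 4. In *Zeb1 200H* replicates 1 to 4 it took 32.4%, 32.4%, 32.6%, and 32.0%, and in *Zeb1 200M* replicates 1 to 4 it took 33.8%, 32.5%, 35.1%, and 33.5%. The 3p arm held the larger share throughout. *Zeb1 200M* exceeded WT in 5p share by 2.33 percentage points (1.62 to 2.89 with a library left out), and *Zeb1 200H* by 0.91 (0.20 to 1.47). Every *Zeb1 200M* library lay above every WT library, but only just (32.544% in *Zeb1 200M* replicate 2, 32.541% in WT replicate 2). *Zeb1 200H* overlapped both groups. Means were 31.4% ± 1.29 (SD, n = 3) in WT, 32.3% ± 0.249 (SD, n = 4) in *Zeb1 200H*, and 33.7% ± 1.06 (SD, n = 4) in *Zeb1 200M*, and 32.1% ± 0.592 (SD, n = 2) in WT without replicate 1.

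The 5p strand of the breeding trial cohort held the larger share. It took 60.0%, 59.0%, 73.3%, and 70.6% of miR-140 reads in WT replicates 1 to 4, and the Wilson interval of WT replicate 3, with 60 reads, was 61.0% to 82.9%. In *Zeb1 200H* replicates 1, 3, and 4 it took 68.8%, 65.4%, and 67.5%, and in *Zeb1 200M* replicates 1 to 3 it took 64.4%, 72.8%, and 71.2%. All groups overlapped, with means of 65.7% ± 7.29 (SD, n = 4) in WT, 67.2% ± 1.71 (SD, n = 3) in *Zeb1 200H*, and 69.5% ± 4.45 (SD, n = 3) in *Zeb1 200M*. At this depth the genotypes cannot be told apart by this share. The reversal of the major arm between the cohorts coincides with different dictionaries, in which the 3p arm has 2 names in the virgin tables and 1 in the others, and its part in the shift was not tested.

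Within the 3p reads of the virgin cohort, the share named miR-140-3p.2 was higher in WT than in either mutant. It was 46.4% (Wilson interval 44.2% to 48.5%) in WT replicate 1, 39.7% (38.3% to 41.0%) in replicate 2, and 39.6% (38.2% to 41.0%) in replicate 4. *Zeb1 200H* replicates 1 to 4 had 35.8%, 35.6%, 38.0%, and 37.4%, and *Zeb1 200M* replicates 1 to 4 had 38.9%, 37.0%, 37.9%, and 38.1%. Every WT library exceeded every mutant library, with replicate 1 far above the other WT libraries, and the mutants overlapped each other. Means were 41.9% ± 3.88 (SD, n = 3) in WT, 36.7% ± 1.19 (SD, n = 4) in *Zeb1 200H*, and 38.0% ± 0.772 (SD, n = 4) in *Zeb1 200M*. The differences from WT were −3.90 percentage points in *Zeb1 200M* and −5.16 in *Zeb1 200H*. With replicate 1 left out, the WT mean was 39.6% ± 0.0337 (SD, n = 2), and the differences were −1.66 and −2.92 percentage points.

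**Figure D2:**
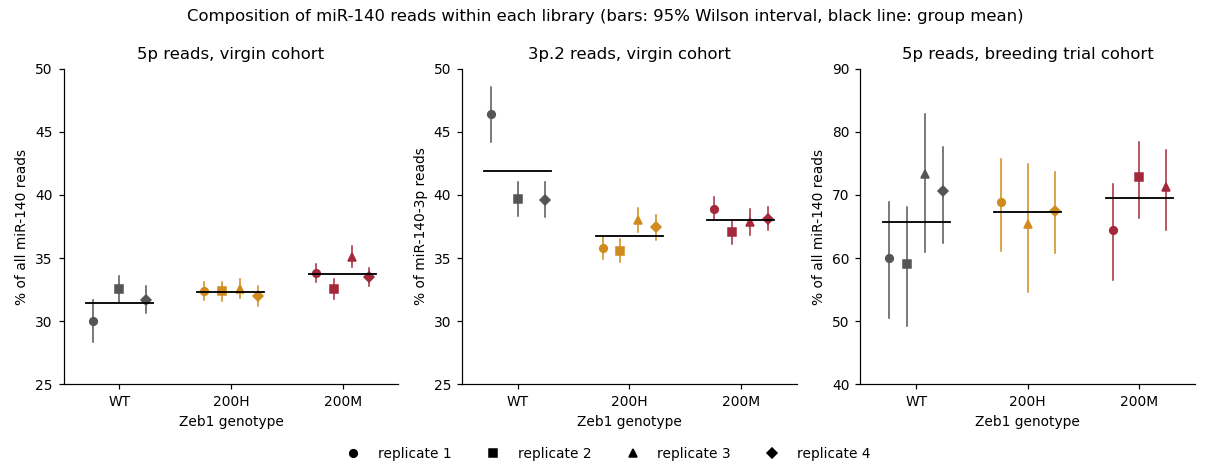
Share of miR-140 reads in each library by *Zeb1* genotype (x axis): the 5p strand as a percent of all miR-140 reads in each cohort, and miR-140-3p.2 as a percent of 3p reads in the virgin cohort (y axes, which do not start at 0). Points are libraries with 95% Wilson intervals and black lines are group means. The miR-140-3p.2 share was 39.6% to 46.4% in WT and 35.6% to 38.9% in the mutants, whereas the 5p shares of the breeding trial overlapped.

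Among miRNAs outside miR-140, those whose log2 CPM followed miR-140-5p most closely were ranked as a description. The points share genotype groups, libraries, and scaling, so a miRNA that differs between WT and mutants ranks high for that alone. Over 11 virgin libraries and 701 miRNAs, Pearson's r was 0.969 for miR-384-5p, 0.935 for miR-330-5p, 0.923 for miR-139-5p, 0.915 for miR-34c-3p, and 0.913 for miR-325-5p, compared with a median of 0.010 over all the others (0.501 when scaled to library totals alone). Spearman's rho was 0.909, 0.682, 0.864, 0.518, and 0.700, in the same order. Within the 8 mutant libraries alone, r was 0.647, 0.308, 0.667, 0.180, and 0.726. Without WT replicate 1, r was 0.970, 0.953, 0.922, 0.917, and 0.951, ranking them 2nd, 4th, 17th, 19th, and 6th.

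Over 10 breeding trial libraries and 282 miRNAs, the closest were miR-124-3p at 0.953, miR-384-5p at 0.933, miR-330-5p at 0.922, miR-544-3p at 0.916, and miR-34c-5p at 0.913, compared with a median of 0.083 (0.407 on library totals). Spearman's rho was 0.915, 0.806, 0.733, 0.891, and 0.842. Within the 6 mutant libraries, r was 0.844, 0.099, −0.341, 0.83, and 0.420, so miR-384-5p and miR-330-5p followed miR-140-5p between WT and mutants but not within the mutants. miR-384-5p and miR-330-5p were among the 5 closest in both cohorts. miR-384-5p averaged 714 CPM in WT, 984 in *Zeb1 200H*, and 1072 in *Zeb1 200M* of the virgin cohort, and 962, 1365, and 1500.5 CPM in the breeding trial.

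The other miR-140 entries were compared with miR-140-5p in the same way. With miR-140-5p, r was 0.981 for miR-140-3p.1 and 0.897 for miR-140-3p.2 over 11 virgin libraries, and 0.766 for miR-140-3p over 10 breeding trial libraries, and Spearman's rho was lower, at 0.527, 0.518, and 0.648. Within the mutants, Pearson's r was −0.455, 0.528, and −0.032 for miR-140-3p.1, miR-140-3p.2, and miR-140-3p. Without WT replicate 1, r was 0.981 for miR-140-3p.1 and 0.989 for miR-140-3p.2.

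Because miR-140 is known from cartilage and the pituitary holds several cell types, miRNAs that mark cartilage, fibroblasts, vascular smooth muscle, endothelium, neurons, oligodendrocytes, blood, and endocrine cells were examined beside it. The lists were chosen with earlier results of these data known, so calls among their members are not independent support. In the cartilage list (miR-455, miR-675, and miR-1247), 0 of 4 tested entries passed the test between *Zeb1 200M* and WT of the virgin cohort, with a median log2 fold change of 0.51, compared with −0.00 over all 678 miRNAs, of which 18 were higher and 26 lower. Of these 4, 3 had an unadjusted p below 0.05 and DESeq2 called 1. Without WT replicate 1, 3 of the 4 were higher (median 0.39), where 94 of all 703 miRNAs were higher (median 0.04). For *Zeb1 200H*, 0 of 4 passed (median 0.42, compared with 0.01 over 672 miRNAs, 11 higher and 23 lower), 1 had an unadjusted p below 0.05, DESeq2 called 1, and 2 were higher without WT replicate 1 (median 0.28). Over all miRNAs without that replicate, 74 of 699 were higher in *Zeb1 200H* (median 0.01). On library totals alone, the medians were 0.84 in *Zeb1 200M* and 0.70 in *Zeb1 200H*.

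The most abundant cartilage entry was miR-455-3p.1, with 243 ± 26.8 CPM (SD, n = 3) in WT, 325 ± 20.8 (SD, n = 4) in *Zeb1 200H*, and 353 ± 20.5 (SD, n = 4) in *Zeb1 200M*. The list summed to 296, 403, and 383 CPM in WT replicates 1, 2, and 4, to 464 to 517 across *Zeb1 200H*, and to 489.9 to 569 across *Zeb1 200M*, so that WT lay below the mutants, as it did for miR-140-5p. Most of these sums was miR-455-3p.1, and WT lay below *Zeb1 200M* without overlap at 94 of all 678 miRNAs. Of the breeding trial's tested cartilage entries, 0 of 2 passed in either comparison with WT by edgeR or DESeq2 (medians 0.08 for *Zeb1 200M* and 0.20 for *Zeb1 200H*, of which 0 and 1 had an unadjusted p below 0.05), and miR-675-5p and miR-1247-3p were at 0. These medians were 0.33 and 0.37 on library totals alone. miR-455-3p in *Zeb1 200H*, at 0.58 ± 0.22 (SE), was called without WT replicate 4 and on library totals alone (0.76 in both). There the list summed to 569, 368, 479.8, and 678 CPM in WT replicates 1 to 4, to 595 to 780.2 across *Zeb1 200H*, and to 586 to 666 across *Zeb1 200M*, and the groups overlapped. The part of cartilage or its precursors in the miR-140 levels was not tested.

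Of the neuronal miRNAs, miR-124-3p was higher in the mutants of both cohorts. The study had already reported this rise from the same virgin libraries. In the neuron list, 2 of 7 entries were higher and 0 lower in virgin *Zeb1 200M* (median 0.36, where 18 of all 678 miRNAs were higher), and 2 of 7 in *Zeb1 200H* (median 0.45, where 11 of 672 were), both of them 5′ variants of the brain-enriched miR-124-3p. miR-124-3p.1 rose in *Zeb1 200M* by a log2 fold change of 2.26 ± 0.26 (SE; edgeR with Benjamini-Hochberg adjustment, adjusted p = 0.000684, above every WT library in 4 of 4) and by 1.71 ± 0.22 in *Zeb1 200H* (adjusted p = 0.00198, 4 of 4). Without WT replicate 1, 4 of 7 were higher in each comparison (medians 0.53 and 0.48), where 94 of all 703 and 74 of all 699 miRNAs were higher. The breeding trial's *Zeb1 200M* libraries were higher at miR-124-3p, miR-9-5p, and miR-137-3p (3 of 5, median 0.44, compared with 0.00 over 276 miRNAs, 56 higher and 43 lower), with log2 fold changes of 2.48 ± 0.14, 0.89 ± 0.19, and 0.44 ± 0.11 (SE). In *Zeb1 200H* of this cohort, miR-124-3p alone of 5 was higher (1.64 ± 0.17, median of the list 0.38, compared with 0.00 over 267 miRNAs, 13 higher and 19 lower). On library totals alone, list medians were 0.77 and 0.72 in virgin *Zeb1 200M* and *Zeb1 200H* and 0.67 and 0.56 in the breeding trial.

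The most abundant neuron entry was miR-124-3p.1 in the virgin mutants (3075 CPM on average in *Zeb1 200H* and 4531 in *Zeb1 200M*) but miR-137-3p in virgin WT (1487 CPM, compared with 946 for miR-124-3p.1). The list summed to 2769, 4577, and 4992 CPM in virgin WT replicates 1, 2, and 4, to 7378, 7405, 7743, and 7898 across *Zeb1 200H* replicates 1 to 4, and to 10996, 9295, 10379, and 7724 in *Zeb1 200M* replicates 1 to 4. Its breeding trial sums were 6690.5, 5985, 5965, and 7268 CPM in WT replicates 1 to 4, 11329, 9111, and 10308 in *Zeb1 200H*, and 14441, 14758, and 14303 in *Zeb1 200M*. Every mutant library exceeded every WT library, as for miR-140-5p, and no list member was at 0. The miR-124-3p entries held much of these sums in the mutants. In *Zeb1 200M*, 94 of 678 virgin and 57 of 276 breeding trial miRNAs were likewise above WT without overlap. The part of neural cells in the miR-140 levels was not tested.

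The endocrine list (miR-7a-5p, miR-7b-5p, miR-375-3p, miR-141-3p, and miR-200c-3p) shares its last 2 members with the miR-200 list. In the virgin cohort, 2 of its 5 members were lower in *Zeb1 200M* (median −1.01, where 26 of all 678 miRNAs were lower) and 2 in *Zeb1 200H* (median −0.88, where 23 of 672 were), namely miR-141-3p and miR-200c-3p. Leaving out WT replicate 1, whose sum was the highest of all, gave 3 in each comparison and medians of −0.51 and −0.41. Over all miRNAs, 74 of 703 and 77 of 699 were then lower. With all libraries kept, DESeq2 called 3 in each, and the medians were −0.52 and −0.45 on library totals alone. Of the breeding trial's 5, 4 were lower in *Zeb1 200M* (median −0.62, where 43 of all 276 miRNAs were lower), including miR-375-3p at −0.62 ± 0.10 (SE) and miR-7a-5p, the most abundant member, at −0.45 ± 0.11 (a call lost on library totals alone), and 3 in *Zeb1 200H* (median −0.59, where 19 of 267 were), including miR-375-3p at −0.59 ± 0.09. The breeding trial medians were −0.39 and −0.41 on library totals alone. The list summed to 684282, 320818, and 312095 CPM in virgin WT replicates 1, 2, and 4, to 240190.0 to 276709 across *Zeb1 200H*, and to 215181 to 265941 across *Zeb1 200M*. Breeding trial sums were 376388, 338792, 384620.4, and 369015 CPM in WT replicates 1 to 4, 258203 to 290834 across *Zeb1 200H*, and 229986 to 248433 across *Zeb1 200M*. The endocrine markers of the labelled tissue were thus abundant in each library, and their part in the miR-140 levels was not tested.

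The miR-200a/b guide strands, the miRNAs that the altered allele escapes, fell at all 5 members (miR-429-3p, miR-141-3p, and the 3p strands of miR-200a, miR-200b, and miR-200c) in each comparison with WT. Of all miRNAs, 26 of 678 and 23 of 672 were lower in the virgin *Zeb1 200M* and *Zeb1 200H*, and 43 of 276 and 19 of 267 in the older ones. Median log2 fold changes were −3.49 and −2.67 in virgin *Zeb1 200M* and *Zeb1 200H* (−3.30 and −2.42 without WT replicate 1), and −3.21 and −2.53 in those of the breeding trial. In *Zeb1 200M*, miR-141-3p changed by −3.73 ± 0.27 (SE) in the virgin cohort, and miR-200c-3p by −3.61 ± 0.11 in the breeding trial. On average, miR-200c-3p was the most abundant of the 5 in WT of both cohorts (26172 CPM in virgin and 21217 in breeding trial WT, compared with 25019.6 and 19832 of miR-141-3p). Virgin WT replicate 1 carried that order in its cohort, since miR-141-3p had more counts in replicates 2 and 4. miR-141-3p exceeded miR-200c-3p in *Zeb1 200M* of both (1889 and 1879 CPM, compared with 1532 and 1744). The list summed to 111748, 59148, and 56460 CPM in virgin WT replicates 1, 2, and 4, to 10677 to 13652 across *Zeb1 200H*, and to 5975 to 6734 across *Zeb1 200M*, and in the breeding trial to 64302 to 71129 in WT, 12164 to 12627 across *Zeb1 200H*, and 6677 to 7693 across *Zeb1 200M*. All WT libraries held more than all mutant libraries, the opposite of miR-140-5p.

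In the fibroblast list, whose most abundant member was miR-199a-5p, 0 of 4 entries passed in either virgin comparison by edgeR, DESeq2, or an unadjusted p below 0.05 (medians 0.40 for *Zeb1 200M* and 0.33 for *Zeb1 200H*), while 18 of all 678 and 11 of all 672 miRNAs were higher. Without WT replicate 1, 1 and 0 entries were higher and the medians were 0.21 and 0.06, where 94 of all 703 and 74 of all 699 miRNAs were higher. For the breeding trial, 0 of 2 passed in *Zeb1 200M* (median 0.47, where 56 of 276 miRNAs were higher, 1 at an unadjusted p below 0.05) and 0 of 1 in *Zeb1 200H* (0.02, where 13 of 267 were), and DESeq2 called 0 in both. Its sums were 108, 313, and 313 CPM in virgin WT replicates 1, 2, and 4, 309 to 434 in virgin *Zeb1 200H*, 357 to 408 in virgin *Zeb1 200M*, and 246 to 397, 289 to 419, and 344 to 371 CPM in WT, *Zeb1 200H*, and *Zeb1 200M* of the breeding trial. WT replicate 1 held less of this list than the other virgin WT libraries, as it did of the cartilage and neuron lists. Its scaled miR-140 levels were higher.

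In the vascular smooth muscle list, miR-145a-5p was higher in virgin *Zeb1 200M* (1 of 4, median 0.42, where 18 of all 678 miRNAs were higher), by 0.57 ± 0.13 (SE, edgeR, adjusted p = 0.0468, above every WT library in 4 of 4). That call was lost in 9 of 13 alternatives, where adjusted p ranged from 0.00226 to 0.414 over all 13. In virgin *Zeb1 200H*, 0 of 4 passed (median 0.20, where 11 of 672 were, 1 at an unadjusted p below 0.05, 0 by DESeq2). When WT replicate 1 was dropped, 2 and 1 were higher (medians 0.48 and 0.29), where 94 of all 703 and 74 of all 699 miRNAs were higher. Against breeding trial WT, 2 of 2 were higher in *Zeb1 200M* (median 0.36, where 56 of all 276 miRNAs were higher), miR-143-3p by 0.39 ± 0.12 and miR-145a-5p by 0.33 ± 0.11, and 0 of 2 in *Zeb1 200H* (median 0.15, where 13 of 267 were, 0 at an unadjusted p below 0.05, 0 by DESeq2). The call of miR-143-3p was lost without *Zeb1 200M* replicate 1, and that of miR-145a-5p in 5 of 13 alternatives, among them leaving out WT replicate 1 or *Zeb1 200M* replicate 1 or 2. The sums were 2490 to 3096 CPM in WT, 2007 to 3618 across *Zeb1 200H*, and 1894 to 4222 across *Zeb1 200M* of the virgin cohort, and 4051 to 4539, 4403 to 5020.5, and 5322 to 5975 in the breeding trial. Virgin *Zeb1 200M* replicate 3 set the low end of its group, with 23.5 CPM of miR-143-3p compared with 1996 to 2324 in the other 3, and *Zeb1 200H* replicate 3 had 570.5 CPM. On average, miR-143-3p was the most abundant member in virgin WT (1483 CPM, compared with 1157 for miR-145a-5p), and miR-145a-5p in the breeding trial. Virgin WT replicate 1 had 1985 CPM of miR-143-3p, compared with 1175 and 1289 in replicates 2 and 4. In virgin *Zeb1 200H*, miR-145a-5p averaged more (1512 CPM, compared with 1427 for miR-143-3p). In virgin *Zeb1 200M*, miR-143-3p led in replicates 1, 2, and 4, although replicate 3 brought its average to 1595 CPM, below the 1717 of miR-145a-5p.

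The endothelial miR-126a, the most abundant strand of which was the 3p strand, gave 0 of 3 entries in virgin *Zeb1 200M* (median −0.22, where 18 of all 678 miRNAs were higher and 26 lower) and 0 of 3 in *Zeb1 200H* (median −0.24, where 11 of 672 were higher and 23 lower), with 0 at an unadjusted p below 0.05 and 0 by DESeq2. The medians turned to 0.21 and 0.15 without WT replicate 1, and to 0.25 and 0.18 on library totals alone with all libraries kept. Against breeding trial WT, 2 of 2 were higher in *Zeb1 200M* (median 0.33, where 56 of all 276 miRNAs were higher), miR-126a-3p by 0.28 ± 0.10 (SE) and miR-126a-5p by 0.39 ± 0.10, and 0 of 2 in *Zeb1 200H* (median 0.27, where 13 of 267 were, 1 at an unadjusted p below 0.05, 1 by DESeq2). The call of miR-126a-3p was lost in 5 of 13 alternatives, among them leaving out WT replicate 1 or *Zeb1 200M* replicate 1 or 2. Sums were 9878, 6529, and 5387 CPM in virgin WT replicates 1, 2, and 4, 6339 to 6909 across *Zeb1 200H*, and 6302 to 7096 across *Zeb1 200M*, and 6813 to 7379, 7922 to 9110, and 8038 to 9228 CPM in the breeding trial.

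For blood and immune miRNAs, 0 of 7 entries passed in virgin *Zeb1 200M* (median 0.23, where 18 of all 678 miRNAs were higher) and in *Zeb1 200H* (median 0.55, where 11 of 672 were), with 2 at an unadjusted p below 0.05 and 1 by DESeq2 in each. When WT replicate 1 was dropped, 1 and 2 were higher and the medians were 0.11 and 0.29, where 94 of all 703 and 74 of all 699 miRNAs were higher. Against breeding trial WT, 3 of 6 were higher in *Zeb1 200M* (median 0.52, where 56 of all 276 miRNAs were higher), namely the erythroid miR-144-3p by 0.57 ± 0.18 (SE), the myeloid miR-223-3p by 1.06 ± 0.28, and the leukocyte miR-142-3p by 0.94 ± 0.19. The call of miR-144-3p was lost in 2 of 13 alternatives, among them leaving out *Zeb1 200M* replicate 3. The most abundant member, miR-451a, was not called there (0.14, edgeR, adjusted p = 0.404). In *Zeb1 200H*, 0 of 6 passed (median 0.17, where 13 of 267 were, 2 at an unadjusted p below 0.05, 0 by DESeq2). Sums, of which miR-451a made up the most, were 8746 to 10430.5 CPM in WT, 8629 to 18101 across *Zeb1 200H*, and 8981 to 11126 across *Zeb1 200M* of the virgin cohort, and 6899 to 9672, 7645 to 9287, and 8254 to 11624 CPM in the breeding trial. Virgin *Zeb1 200H* replicate 2 set the high end of its group, and the other libraries of that group had 8629 to 11489 CPM.

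In the oligodendrocyte list, 0 of 2 tested entries passed in virgin *Zeb1 200M* (median −0.19, where 18 of all 678 miRNAs were higher and 26 lower, 2 at an unadjusted p below 0.05 in opposite directions, 1 by DESeq2) and in *Zeb1 200H* (median −0.09, where 11 of 672 were higher and 23 lower, 1 at an unadjusted p below 0.05, 1 by DESeq2). With WT replicate 1 left out, 1 was higher in each, where 94 of all 703 and 74 of all 699 miRNAs were, and the list medians turned to 0.04 and 0.12. They also turned, to 0.23 and 0.28, on library totals alone with all libraries kept. In the breeding trial, miR-338-3p, the most abundant member, was higher in *Zeb1 200M* by 0.45 ± 0.15 (SE; 1 of 2, median 0.37, where 56 of all 276 miRNAs were higher), a call that was lost without WT replicate 2 or *Zeb1 200M* replicate 1 or 2. In *Zeb1 200H*, 0 of 2 passed (median 0.27, where 13 of 267 were, 1 at an unadjusted p below 0.05, 0 by DESeq2), and miR-219b-5p was at 0 in this cohort. Sums were 616 to 746 CPM in WT, 720.1 to 760.5 across *Zeb1 200H*, and 692 to 787 across *Zeb1 200M* of the virgin cohort, and 895 to 1285, 1237 to 1741, and 1422 to 1619 CPM in the breeding trial. The parts of fibroblasts, vessels, blood, and oligodendrocytes in the miR-140 levels were not tested.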

How the data were processed

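The deposited counts are reads per miRNA and library. To obtain them, the authors used cutadapt on adapters, applied a quality filter to each base, matched read starts to a TargetScanMouse dictionary (virgin cohort) or a miRBase dictionary (breeding trial), and removed spike-ins. Their scaled values and statistics were not used. Counts of all 21 libraries were taken from 6 tables, and the 21 repeated appearances were identical.

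Genotype pairs were compared within a cohort by the quasi-likelihood F test of edgeR 4.0.16 in R 4.3.3 (TMM scaling, minimum count 10, minimum total 15, Benjamini-Hochberg adjustment over all miRNAs tested, threshold 0.05), after tests on simulated data. Standard errors come from the F statistic. Alternatives were DESeq2 1.42.0, RLE size factors, library totals alone, no filter, a common fit of 3 genotypes, a replicate block, and each library left out.

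Named miRNAs are the miR-140 entries, the 5 with the highest correlation with miR-140-5p in each cohort, miRNAs sharing a seed, the miR-200 guide strands, and list members that were called against WT or most abundant. The members and lists were chosen with earlier results of these data known. miR-199a-3p, miR-199b-3p, and miR-486a-5p are not listed under these names and were not counted.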

Additional observations from a re-analysis of the deposited data

How the results depend on the processing

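RLE size factors kept every miR-140 value within the replicate spread and the counts of calls within 1.5 times. DESeq2 called 93 and 73 miRNAs in virgin *Zeb1 200M* and *Zeb1 200H* against WT. A common fit called 90 and 67 miRNAs, and 5 miRNAs between the virgin mutants.

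On library totals alone, the median log2 fold change of all miRNAs moved to 0.34 and 0.29 in virgin *Zeb1 200M* and *Zeb1 200H* and to 0.24 and 0.18 in the breeding trial. miR-140-5p, miR-140-3p.1, and miR-140-3p.2 then had 1.15, 1.09, and 0.85 in virgin *Zeb1 200M*, and 1.04, 1.10, and 0.79 in *Zeb1 200H*. Relative to the median, miR-140-5p was at 0.81 and 0.75. Between virgin mutants, miR-140-3p.1 had −0.0120 and miR-140-5p 0.11. In the breeding trial, miR-140-5p had 1.24 and 1.01 (1.00 and 0.83 relative to the median), and 69 miRNAs were called in *Zeb1 200H*. Higher and lower calls were 39 and 19 and 21 and 21 in the virgin comparisons (18 and 26 and 11 and 23 as reported), and 84 and 26 and 54 and 15 in the breeding trial (56 and 43 and 13 and 19 as reported). List medians of *Zeb1 200M* and *Zeb1 200H* also moved. Virgin medians were 0.69 and 0.56 (fibroblast), 0.80 and 0.53 (vascular smooth muscle), and 0.52 and 0.76 (blood). Breeding trial medians were 0.71 and 0.19 (fibroblast), 0.59 and 0.33 (vascular smooth muscle), and 0.76 and 0.35 (blood). There the endothelial list had 0.57 and 0.45 and the oligodendrocyte list 0.61 and 0.44. The cause was not tested.

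Leaving out each library in turn, calls ranged from 25 to 168 in virgin *Zeb1 200M* against WT and from 21 to 151 for *Zeb1 200H*, and from 3 to 5 between the breeding trial mutants. Log2 fold changes ranged from 0.62 to 0.97, 0.55 to 0.90, and 0.21 to 0.80 in virgin *Zeb1 200M* for miR-140-5p, miR-140-3p.1, and miR-140-3p.2, whereas *Zeb1 200H* gave 0.56 to 0.89, 0.62 to 0.95, and 0.20 to 0.77.

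Replicate numbers showed no steady pairing of the libraries. Groups this small make the check weak, and the labels do not say what the numbers mark. Deviations from group means correlated between same-numbered libraries at −0.232 to 0.029 (virgin *Zeb1 200M* and WT), −0.017 to 0.077 (*Zeb1 200H* and WT), and −0.030 to 0.162 (mutants), and in the breeding trial at −0.141 to 0.013, 0.045 to 0.180, and −0.122 to 0.047. The best match had the same number for replicates 1 and 3 of the virgin mutants and replicate 1 of virgin *Zeb1 200H* and WT. It also did for replicate 4 of breeding trial *Zeb1 200H* and WT, and in no other pair. With the replicate block, calls against WT were 20 and 18 in virgin and 87 and 47 in breeding trial *Zeb1 200M* and *Zeb1 200H*, and 14 and 5 between mutants. Under the block, miR-143-3p had 0.23 in virgin *Zeb1 200H* and miR-199a-5p −0.00512 in *Zeb1 200H* of the breeding trial, both uncalled and with the opposite sign. The block also removed the calls of miR-126a-3p, miR-145a-5p, and miR-144-3p in *Zeb1 200M* of the breeding trial (adjusted p = 0.0705, 0.0857, and 0.0844) and that of miR-145a-5p in virgin *Zeb1 200M* (0.414), and added that of miR-7a-5p in *Zeb1 200H* of the breeding trial (−0.24, adjusted p = 0.000519, 0.330 as reported). miR-140-3p between the older mutants had 0.18 under the block.

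Of the list members called, 33 of 40 kept their calls in all 13 alternatives. Without a filter, miR-126a-3p and miR-145a-5p were not called in *Zeb1 200M* of the breeding trial (adjusted p = 0.153 and 0.0872). Of 24 uncalled results, 9 gained a call: miR-455-3p.1 in virgin *Zeb1 200M* and *Zeb1 200H* (DESeq2, common fit, without WT replicate 1), miR-338-3p in virgin *Zeb1 200M* (the same 3) and *Zeb1 200H* (DESeq2, without WT replicate 1), and in the breeding trial miR-455-3p (library totals, without WT replicate 4), miR-126a-3p (DESeq2, library totals), miR-338-3p (library totals), and miR-7a-5p (block) in *Zeb1 200H* and miR-451a (library totals, without WT replicate 2) in *Zeb1 200M*. Signs turned for 9 uncalled results. In virgin *Zeb1 200M*, miR-143-3p ranged from −0.13 to 0.50 and miR-126a-3p.1 from −0.41 to 0.21 with a library left out, and miR-126a-3p.1 had 0.25 on library totals. In virgin *Zeb1 200H*, miR-143-3p ranged from −0.23 to 0.22 and miR-126a-3p.1 from −0.47 to 0.15, on library totals they had 0.33 and 0.16, and miR-143-3p had 0.0161 without a filter. In the breeding trial with a library left out, miR-451a spanned −0.0182 to 0.29 in *Zeb1 200M* and −0.14 to 0.15 in *Zeb1 200H*, where miR-199a-5p ranged from −0.13 to 0.14 and miR-145a-5p from −0.0869 to 0.11. There miR-145a-5p had −0.0049 without a filter and miR-7a-5p 0.0174 on library totals. The cause was not tested.

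Correlations without virgin WT replicate 1 and within mutants alone were added after the data were seen. Depth limits the breeding trial, where single libraries held 16 to 150 reads of a miR-140 strand.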
